A study of Bos taurus with 12 samples.

Results

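bta-miR-486, bta-miR-451 and bta-miR-144 are the 3 microRNAs (miRNAs) most closely tied to red blood cells, and they were followed through the 12 plasma extracellular vesicle (EV) libraries of the study. They were taken by name from a table of 783 bovine mature miRNAs, of which 336 had at least 1 read in any library. All 3 were detected, with 32165, 338 and 24 reads in total. The libraries came from EVs, membrane-bound particles that cells release into the blood, isolated from the plasma of 6 Charolais- or Limousin-cross beef heifers kept on one farm. Each heifer was bled from the tail vessels on Day 7 of an unstimulated cycle (U) and again on Day 7 of a superstimulated cycle (S), so that every S library followed FSH given in decreasing doses, prostaglandin and insemination, and every U library followed estrus synchronization with progesterone, GnRH and prostaglandin, which all heifers received. From a larger group of superstimulated heifers, the study selected 3 high (H) and 3 low (L) responders, in the upper and lower quartile of response. Response was the number of corpora lutea (CL) counted after superstimulation, and the 4 groups UL, UH, SL and SH had 3 libraries each. UL and UH heifers had not yet received FSH, so their H or L name refers to the later response of the same heifer. Libraries are named by group and heifer number, and the library UH3, for example, was taken to come from the same heifer as SH3.

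Red blood cells of mammals lose their nucleus but keep much of their miRNA, and these 3 miRNAs are classical erythroid species. miR-451 and miR-144 are cut from the same primary transcript, which the erythroid factor GATA1 switches on, and miR-451 is unusual in being matured by the slicing enzyme AGO2 and not by Dicer. miR-451 restrains YWHAZ, and miR-144 restrains NFE2L2, the regulator of the oxidative stress response. miR-486 lies in an intron of ANK1, the gene of the membrane skeleton protein ankyrin, and is also abundant in skeletal and heart muscle. Because red cells hold so much of them, a rise of miR-451 over a miRNA such as miR-23a, which red cells hold at a steady low level, is used to detect haemolysis in plasma, and the study checked its samples by this ratio.

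The mature sequences are shown because the table assigns reads to each miRNA by perfect match, so that these letters fix what was counted. They are given as DNA letters in the 5′ to 3′ direction, as deposited, with the seed (bases 2 to 8, which pair with target mRNAs) in capitals.
bta-miR-486: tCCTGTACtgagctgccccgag
bta-miR-451: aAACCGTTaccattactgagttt
bta-miR-144: tACAGTATagatgatgtactag
The sequences are 22, 23 and 22 bases long, and their GC content is 63.6%, 34.8% and 31.8%. The 3 seeds differ from each other, and 0 of the other entries of the table carries any of them. miR-144 differed in this from the other two by having near relatives, since bta-miR-101 and bta-miR-199c share bases 2 to 7 with it and depart from it at base 8.
bta-miR-101: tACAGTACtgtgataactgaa
bta-miR-199c: tACAGTAGtctgcacattgg
miR-101, which is not an erythroid miRNA, had 360 reads in total and a mean of 29.5 normalized reads, and miR-199c had 47 reads and a mean of 3.89 normalized reads. The mean of miR-144 itself was 2.03 normalized reads. In the RefSeq annotation of the assembly ARS-UCD2.0, MIR486 lies within ANK1, and MIR451 and MIR144 are direct neighbours between ERAL1 and FLOT2. The coordinates of the study's build, UMD3.1, were not used here.

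The libraries held 21466 to 77433 reads of known miRNAs, with a median of 41190. Levels are given as reads scaled by TMM (trimmed mean of M-values) to the mean effective library, called normalized reads, and 3 reads corresponded to between 1.81 of them in SH3 and 6.03 in SH2. One library, UL1, stood apart in the striated muscle miRNAs, whose summed level was 1717 normalized reads there and at most 165.8 in the other 11. The library SH3 had the most reads and stood apart in miR-486 itself.

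miR-486 was among the most abundant miRNAs of the EVs and had 1 library far above the others. It had 1136, 2594 and 1240 normalized reads in UL, 1489, 1108 and 2713 in UH, 975.0, 2221 and 2119 in SL, and 1727, 2230 and 8318 in SH, each in the order of heifers 1 to 3. Only SH3 lay apart, 3.07-fold above the next library, which was UH3 from the same heifer, and 4.82-fold above the median of the other 11. The other 11 libraries spread over the same range in all groups. Among all known miRNAs of a library it ranked between the second place in SH3 and the eighth in UH2 and SL1. Its share of known miRNA reads was 17.8% in SH3 (Wilson 95% interval 17.6 to 18.1%) and lay between 2.10% in UH2 (2.0 to 2.21%) and 6.90% in UH3 (6.68 to 7.12%) elsewhere. These intervals cover counting error only.

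The group means of miR-486 were 1657 ± 813 normalized reads in UL (SD, n = 3), 1770 ± 838 in UH, 1772 ± 692 in SL and 4092 ± 3669 in SH. Without SH3 the mean of the remaining SH libraries was 1979, still the highest but close to the other groups. The means of UL, UH and SL differed by less than the SD of any of these groups. With all libraries, the step from SL to SH exceeded the SD of SL but not that of SH, which includes SH3. Over the 12 libraries its coefficient of variation (CV) was 85.3%, which placed it 15th of the 107 miRNAs that averaged 10 reads or more per library, whose median CV was 40.3%. Without SH3 its CV was 35.3%, the 60th in rank, beside a median of 37.5%.

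miR-451 was present at a far lower level, and its high libraries were spread over all 4 groups. It had 45.2, 28.0 and 19.8 normalized reads in UL, 13.2, 12.1 and 39.9 in UH, 7.37, 38.4 and 15.5 in SL, and 30.9, 18.1 and 43.4 in SH. UL1, SH3, UH3 and SL2 were the highest, 1 in each group, and SL1 was the lowest with 6 reads. The highest library exceeded the lowest by 6.13-fold, and all groups overlapped. The group means were 31.0 ± 13.0 normalized reads in UL (SD, n = 3), 21.7 ± 15.7 in UH, 20.4 ± 16.1 in SL and 30.8 ± 12.6 in SH. No pair of neighbours in the order UL, SH, UH, SL differed by more than the spread between heifers. Its rank among the miRNAs of a library lay between 62 and 112, its share between 0.0187% (Wilson 95% interval 0.00855 to 0.0407%) in SL1 and 0.119% (0.0900 to 0.157%) in UL1, and its CV was 51.4%, or 52.3% without SH3 and 51.5% without UL1.

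miR-144 was close to the limit of detection. It had 8, 0 and 4 reads in UL, 1, 1 and 5 in UH, 0, 1 and 1 in SL, and 0, 2 and 1 in SH. Only UL1, UL3 and UH3 had more than 3 reads, and the S libraries had at most 2. On the normalized scale UL1 was the highest with 7.37, followed by SH2 with 4.02, which rests on 2 reads of the smallest library. The group means were 3.78 ± 3.69 normalized reads in UL (SD, n = 3), 1.98 ± 1.59 in UH, 0.844 ± 0.782 in SL and 1.54 ± 2.17 in SH, and without UL1 that of UL was 1.98. The 0 reads in UL2 allow a share of up to 0.00572% of known miRNA reads, those in SL1 up to 0.00933% and those in SH1 up to 0.00775%, for counting error only. No order of the groups can be read at this depth.

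**Figure D1:**
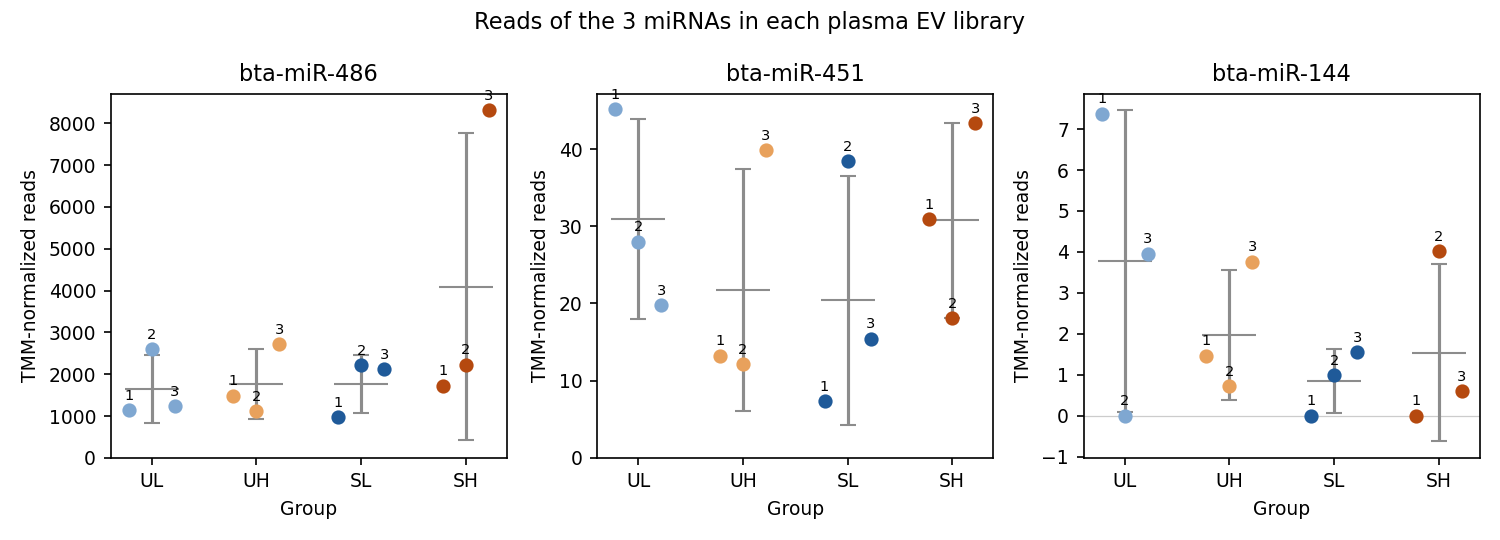
TMM-normalized reads (vertical axes, linear, a different scale in each panel) of bta-miR-486, bta-miR-451 and bta-miR-144 in the groups UL, UH, SL and SH. Points are libraries with the heifer number above them, horizontal bars are group means and error bars the SD of 3 libraries. The library SH3 has 8318 normalized reads of miR-486, while the high libraries of miR-451 fall in all 4 groups and miR-144 stays at or below 7.37.

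The first question of the design was whether heifers with a high and a low response differed, before (UH vs. UL) and after (SH vs. SL) superstimulation. In UH vs. UL, limma gave a log2 difference in normalized reads + 1 of 0.10 for miR-486 (SE 0.37, 95% interval -0.69 to 0.89, adjusted P = 0.979), beside a median of 0.04 over the 227 miRNAs tested. For miR-451 it was -0.62 (SE 0.51, -1.70 to 0.45, adjusted P = 0.929) and for miR-144 -0.35 (SE 0.86, -2.16 to 1.46, adjusted P = 0.969), the last depending on the 1 added to low reads. The thresholds of the study, a log2 difference of 1 or more in size together with an unadjusted P up to 0.05, were met by 0 of the 3, against 2.64% of all miRNAs tested. The libraries of UH and UL overlapped for all 3, while they did not overlap for 7.49% of all miRNAs. Without UH3, the highest UH library, the difference of miR-451 was -1.15 (unadjusted P = 0.0302, adjusted P = 0.828 in limma), so that this call depended on 1 library. Without UL1 the differences were -0.12 for miR-486, -0.32 for miR-451 and 0.29 for miR-144, where those of miR-486 and miR-144 had the opposite sign.

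In SH vs. SL, miR-486 was 0.93 higher on the log2 scale in SH (SE 0.61, 95% interval -0.42 to 2.29, adjusted P = 0.694 in limma), beside a median of -0.08 over the 201 miRNAs tested. The difference of miR-451 was 0.77 (SE 0.65, -0.66 to 2.2, adjusted P = 0.697). Neither was called, and both intervals included 0. For miR-144 no fold is given, since all libraries of both groups had at most 2 reads. Among all miRNAs 5.47% were called and 8.96% had libraries that did not overlap, and 0 of the 3 members met either. Without SH3 the differences of miR-486 and miR-451 were 0.24 and 0.49, and without SH1 that of miR-486 was 1.37 (unadjusted P = 0.0481, adjusted P = 0.766). SH3 lay far above every SL library, whereas SH2 with 2230 normalized reads was level with SL2 with 2221, and SH1 with 1727 lay below SL2 and SL3.

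The next question was whether superstimulation changed the EV content of the same type of heifer. In UH vs. SH, miR-486 was 0.95 higher in SH on the log2 scale (SE 0.59, 95% interval -0.28 to 2.17, adjusted P = 0.736 in limma), beside a median of -0.14 over the 212 miRNAs tested. miR-451 gave 0.61 (SE 0.64, -0.72 to 1.94, adjusted P = 0.832) and miR-144 -0.44 (SE 0.79, -2.10 to 1.22, adjusted P = 0.890). Called were 0 of the 3, against 5.66% of all miRNAs, and 0 of the 3 had libraries without overlap, against 7.55%. With the heifer as a replicate block the unadjusted P of miR-486 was 0.0348 at the same difference of 0.95, which stays below the fold threshold, and its adjusted P was 0.519. Without SH1 the difference of miR-486 was 1.39 (unadjusted P = 0.0348) and without SH2 1.20 (unadjusted P = 0.0276), which were calls. Without SH3 it was 0.25, that of miR-451 was 0.33 and that of miR-144 -0.28.

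In UL vs. SL, miR-486 differed by 0.11 (SE 0.38, 95% interval -0.74 to 0.96, adjusted P = 0.984 in limma), beside a median of -0.07 over the 214 miRNAs tested. miR-451 gave -0.79 (SE 0.57, -2.04 to 0.47, adjusted P = 0.702) and miR-144 -1.01 (SE 0.86, -2.91 to 0.88, adjusted P = 0.732). Called were 0 of the 3, against 2.34% of all miRNAs, and 0 were without overlap, against 7.94%. The lower mean of miR-451 in SL went together with SL1 and SL3, while SL2 lay above 2 of the 3 UL libraries. Without SL2 the difference of miR-451 was -1.37 (unadjusted P = 0.0197), and without UL2, which had 0 reads of it, that of miR-144 was -1.91 (unadjusted P = 0.0270), which are calls with adjusted P of 0.411 and 0.578. The difference of miR-451 was closer to 0 without UL1 (-0.48) and without SL1 (-0.25), as was that of miR-144 (-0.37 and -0.62), and that of miR-486 was -0.11 without UL1, with the opposite sign.

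The change between cycles was also compared between H and L heifers. The difference of the changes, (SH - UH) - (SL - UL), was 0.84 for miR-486 (SE 0.76, adjusted P = 0.847), 1.39 for miR-451 (SE 0.85, 95% interval -0.39 to 3.18, adjusted P = 0.847) and 0.57 for miR-144 (SE 1.21, adjusted P = 0.983), in limma over all 12 libraries. No member was called, against 5.04% of the 238 miRNAs tested. For miR-451 the fit without UH3 gave 1.92 (unadjusted P = 0.0400) and the fit without SL2 1.98 (unadjusted P = 0.0309), which are calls that the 12 libraries together did not give, whereas the fit without SL1 gave 0.86, without UL1 1.09 and without SH3 1.11. Without SH3 the value of miR-486 was 0.14, and without UL1 that of miR-144 was -0.066. In all 5 fits the smallest adjusted P of any miRNA was 0.290, so 0 miRNAs passed an adjusted P of 0.05, while the unadjusted P of 6, 11, 12, 9 and 12 miRNAs was 0.05 or less.

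**Figure D2:**
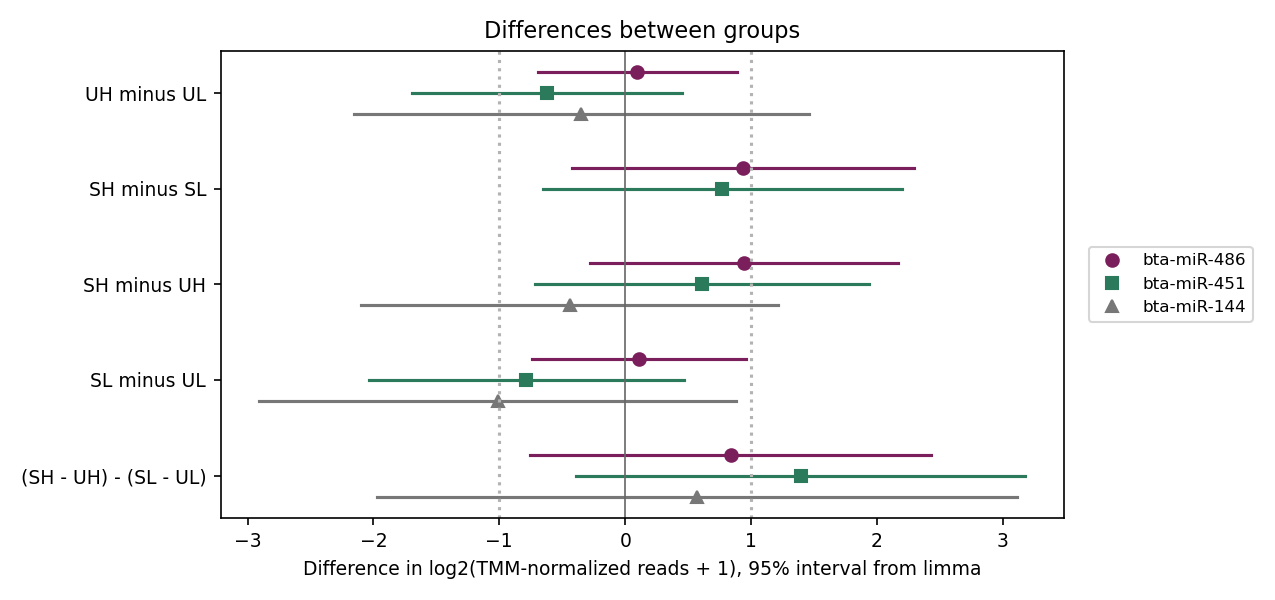
Difference in log2(TMM-normalized reads + 1) between groups for the 3 miRNAs (horizontal axis), with the 95% interval from limma as lines, in the 4 comparisons and for the difference of the changes (rows). Every interval includes 0 (solid line), and the dotted lines mark the fold threshold of 1. miR-144 is left out of SH minus SL, where no library had more than 2 reads.

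Heifer by heifer, the S library minus the U library of miR-486 was -0.22 in L1, -0.22 in L2, 0.77 in L3, 0.21 in H1, 1.01 in H2 and 1.62 in H3 on the log2 scale. All H heifers and 1 of the L heifers were higher in the S cycle. The mean change was 0.53 ± 0.73 (SD, n = 6), and an exact sign-flip permutation test of this mean, two-sided, gave p = 0.219. Without H3 the mean was 0.31 (exact p = 0.438). For miR-451 the changes were -2.46, 0.44 and -0.34 in L1 to L3 and 1.17, 0.54 and 0.12 in H1 to H3, with a mean of -0.09 ± 1.26 (exact p = 0.938). The change in L1 was the largest and was from UL1, the library with the high muscle miRNAs, to SL1, and without L1 the mean was 0.39 (exact p = 0.188). The changes of miR-144 had a mean of -0.73 ± 1.72, with 4 of 6 heifers lower in the S cycle (exact p = 0.375), and without L1 it was -0.26 (exact p = 0.75). The smallest p this test can give is 0.0312.

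Averaged over both cycles, H heifers exceeded L heifers by 0.52 in miR-486 and by 0.07 in miR-451 on the log2 scale, and lay below them by a difference of -0.06 in miR-144. Exact permutation tests over the 20 divisions of the 6 heifers gave p = 0.7, 0.8 and 0.9, and they could not go below 0.1. Without H3 the difference of miR-486 was -0.01, so its direction depended on that heifer, and that of miR-451 was -0.33. Without L1 the differences were 0.21, -0.041 and 0.062.

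The U and S levels were also compared over the heifers. The S bleed followed FSH treatment, so a level particular to a heifer cannot be told apart from its response to treatment. For miR-486 the U and S levels gave Pearson's r = 0.70 over the 6 heifers (exact permutation p = 0.0764, adjusted over the 3 members 0.229) and Spearman's rho = 0.37 (exact p = 0.497). Without L2 and H3, the heifers farthest from the median in the U cycle, r was 0.14. H3 had the highest miR-486 in both cycles. Without H3 alone r was 0.38, and without L2 alone it was 0.88, so the relation leaned on H3. Without H2 r was 0.77 (exact p = 0.0417, unadjusted), which is 1 of 6 fits that left out a heifer. For miR-451 r was -0.13 (exact p = 0.817) and rho -0.03 (exact p = 1), and for miR-144 r was -0.44 (exact p = 0.408) and rho -0.41 (exact p = 0.433). Without L1 the r of miR-451 was 0.65 (exact p = 0.258), so that its sign depended on that heifer.

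The 3 miRNAs peaked in different libraries, miR-486 in SH3 and both others in UL1. Over the 12 libraries, as a description, since the U and S libraries share heifers, r of the log2 levels was 0.56 between miR-486 and miR-451, -0.14 between miR-486 and miR-144, and 0.28 between miR-451 and miR-144, the pair of one primary transcript. The first was 0.50 without SH3 and 0.76 without UL1, where miR-451 was the highest and miR-486 the third lowest. The last was 0.10 without UL1 and 0.37 without SH3, and the low reads of miR-144 limit it.

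Within a cycle the libraries come from different heifers, and 6 relations were tested. miR-486 and miR-451 gave r = 0.41 in the U cycle (exact permutation p = 0.418, adjusted 0.683, rho = 0.37, exact p = 0.497) and 0.73 in the S cycle (exact p = 0.106, adjusted 0.633, rho = 0.71, exact p = 0.136). Without the heifers farthest from the median of miR-486, L2 and H3 in the U cycle and L1 and H3 in the S cycle, r was -0.38 and -0.28. Removing the extreme heifers leaves little range, so these values cannot show what the relations rest on. With any 1 heifer left out, r stayed between 0.16 and 0.88 in the U cycle. In the S cycle it stayed between 0.53 and 0.83. miR-451 and miR-144 gave r = 0.52 (exact p = 0.281, adjusted 0.683, rho = 0.54, exact p = 0.297) in the U cycle and 0.04 (exact p = 0.933, adjusted 0.933, rho = 0, exact p = 1) in the S cycle, and 0.07 and -0.63 without the farthest pair. miR-486 and miR-144 gave r = -0.34 (exact p = 0.456, adjusted 0.683, rho = -0.20, exact p = 0.714) and 0.21 (exact p = 0.703, adjusted 0.843, rho = 0.58, exact p = 0.244), and -0.21 and 0.83 without the farthest pair.

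**Figure D3:**
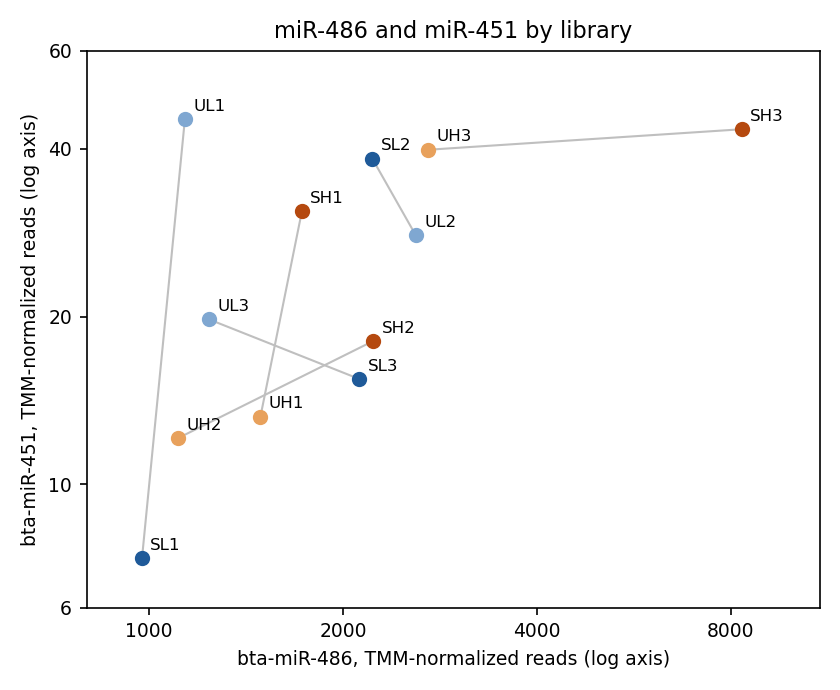
TMM-normalized reads of bta-miR-486 (horizontal, log axis) against bta-miR-451 (vertical, log axis), 1 point per library, with a grey line joining the U and S library of a heifer. SH3 lies far to the right at 8318 reads of miR-486, UL1 at the upper left with 45.2 reads of miR-451, and SL1 is the lowest in both.

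The number of miR-486 reads for each miR-451 read, which does not depend on library size, was 25.2, 92.7 and 62.8 in UL, 113, 91.6 and 68.1 in UH, 132, 57.8 and 137 in SL, and 55.9, 123 and 192 in SH. UL1 was the lowest (exact 95% interval of counting error 18.9 to 34.2) and SH3 the highest (152 to 245), and the median was 92.2. Both ends were picked out of 12 libraries, and the interval of SH3 overlapped those of UH1, UH2, SL1, SL3 and SH2, which rest on 6 to 17 reads of miR-451. Recovery of the 2 miRNAs by the library kit can differ with their sequence, and the ratio is not a ratio of molecules in plasma.

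The ratio of miR-451 to miR-23a reads, the haemolysis ratio taken here from the reads, was 0.50, 0.282 and 0.180 in UL, 0.409, 0.0854 and 0.50 in UH, 0.118, 0.295 and 0.159 in SL, and 0.639, 0.273 and 0.465 in SH. The highest, in SH1, rests on 23 and 36 reads (exact 95% interval 0.361 to 1.11), and the lowest, in UH2, on 17 and 199 reads (0.0488 to 0.140). miR-451 was below miR-23a in every library, although the interval of SH1 reaches above 1. SH3 had the fourth highest ratio, with an interval of 0.346 to 0.618 that overlapped those of SH1, UL1 and UH3. Over heifers the log2 ratio differed by 0.0016 between the S and the U cycle (exact sign-flip permutation p = 1) and by 0.56 between H and L (exact permutation p = 0.4, where 0.1 is the smallest possible). The direction between H and L went together with miR-23a, whose mean normalized reads in L heifers were 99.8 ± 9.68 (UL, SD, n = 3) and 96.7 ± 33.7 (SL), and in H heifers 84.5 ± 54.8 (UH) and 69.3 ± 22.7 (SH). The sources used here give no threshold for this ratio in reads, so no library was classed as haemolysed.

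**Figure D4:**
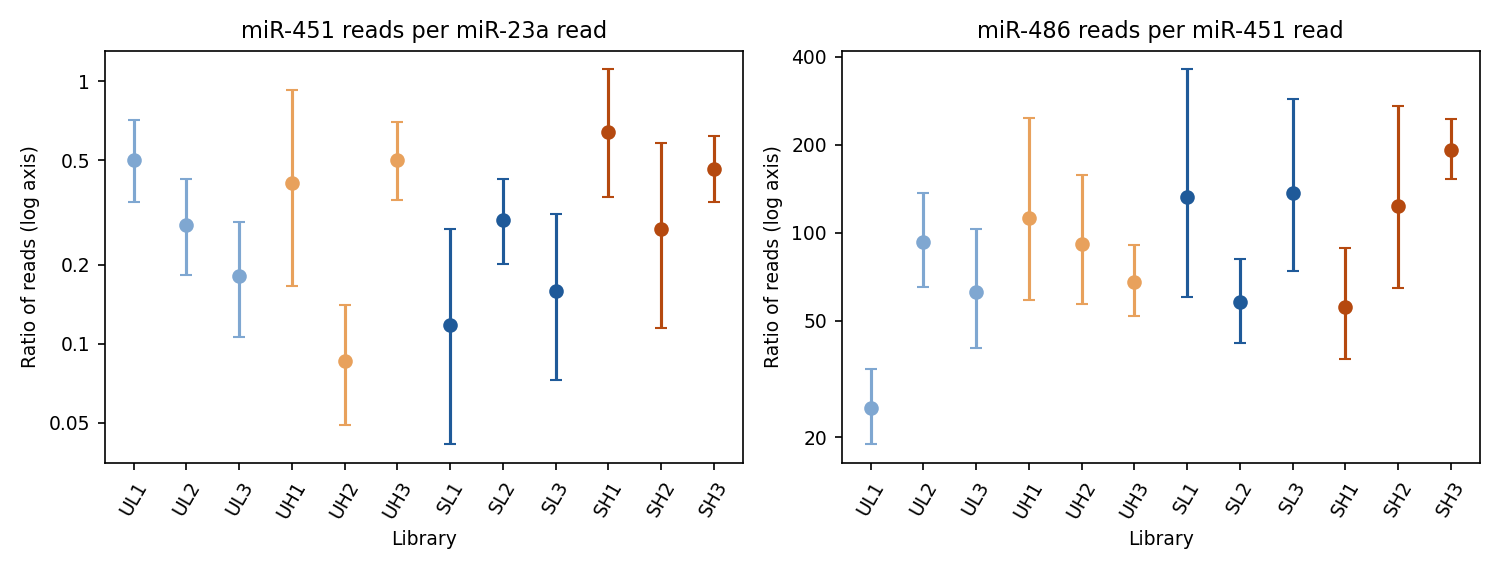
Reads of miR-451 per read of miR-23a (left) and of miR-486 per read of miR-451 (right) in each library, on log axes, with exact 95% intervals of counting error as bars and colours for the groups. SH1 is the highest on the left with 0.639, and on the right UL1 is the lowest with 25.2 and SH3 the highest with 192.

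Other miRNAs abundant in red cells were compared with the members in the libraries that stood out. Of a list of 18, 15 passed the filter on low reads and 2 had 0 reads in every library. Their summed level was 1989 to 2137 normalized reads in UL, 1517 to 2888 in UH, 1749 to 1988 in SL and 1579 to 2949 in SH. SH3 had the highest sum, with the highest UH sum of 2888 close behind, beside a median of 1989 over the 12 libraries. Of the 15, 6 were highest in SH3, against 34 of the 238 detected miRNAs (14.3%). This count includes miR-93, with 181.3 in SH3 and 179.8 in the next library, and miR-106b, which averaged 0.667 reads per library. miR-25, of the miR-106b-25 cluster, reached 988.6 normalized reads in SH3 and at most 433.1 elsewhere. miR-16a reached 585.5 in SH3 and 556.4 in UH3, against a median of 311.4. miR-16b, the most abundant of the list, had 700.0 in SH3, close to its median of 687.4, and was highest in UH3 with 1179. Other members of the list went both ways. miR-185 had 41.6 in SH3 against a median of 16.3, and miR-17-5p had 7.83 against 12.7. How far red cell RNA took part in the high miR-486 of SH3 was not tested.

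In the 4 comparisons 13 to 15 members of that list were tested, and those called were miR-17-5p, lower in SH vs. SL and lower in SH than in UH, and miR-182, lower in SL than in UL. These are 0 of 15 in UH vs. UL, where 2.64% of all miRNAs were called, 1 of 13 in SH vs. SL (5.47%), 1 of 14 in UH vs. SH (5.66%) and 1 of 14 in UL vs. SL (2.34%). The median differences of the list were -0.02, -0.08, -0.18 and -0.26 on the log2 scale, beside 0.04, -0.08, -0.14 and -0.07 over all miRNAs.

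Marker lists of other blood and tissue sources were set beside the members in the same libraries. The striated muscle list had 5 of 5 detected miRNAs highest in UL1, against 26 of 238 (10.9%) of all detected, and miR-1 reached 1148 normalized reads there against a median of 50.1, miR-133a 466.4 against 38.2 and miR-206 86.6 against 9.95. miR-486, which muscle also expresses, was not high in UL1, with 1136 normalized reads. miR-144 was highest in UL1, and so was miR-451, though nearly level with SH3 (45.2 and 43.4 normalized reads). The sum of the platelet list ran from 3546 to 13066 normalized reads and was highest in UH2, the sum of the leukocyte list from 2009 to 4106 with the highest in SL3, and the sum of the liver list from 94.3 to 723.6 with the highest in UH2. The most abundant platelet miRNAs were miR-126-3p, miR-223 and miR-126-5p, which went both ways in SH3. miR-126-3p was lowest in SH3 with 1420 normalized reads against a median of 5052. miR-126-5p had 266.3 there against a median of 680.7, whereas miR-223 had 861.5 against 673.2. Among the leukocyte miRNAs miR-150, a lymphocyte species, had 722.3 in SH3 against a median of 1267. miR-342 had 777.1 there against a median of 887.8, whereas miR-142-5p was highest in SH3 with 369.3 against 217.6. The hepatocyte miRNA miR-122 had 327.1 in SH3 against a median of 108.2. miR-192 had 139.2 there against a median of 56.5, and miR-194 had 20.5 against 8.36. By single miRNAs, SH3 was highest for 1 of 7 platelet, 1 of 7 leukocyte and 2 of 3 liver miRNAs. Of all 238 detected miRNAs, 34 (14.3%) were highest in SH3, which equals the platelet and leukocyte shares. The part of these sources in the levels of the 3 members was not tested, and fewer vesicles from a cell type cannot be told apart from less miRNA per vesicle.

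**Figure D5:**
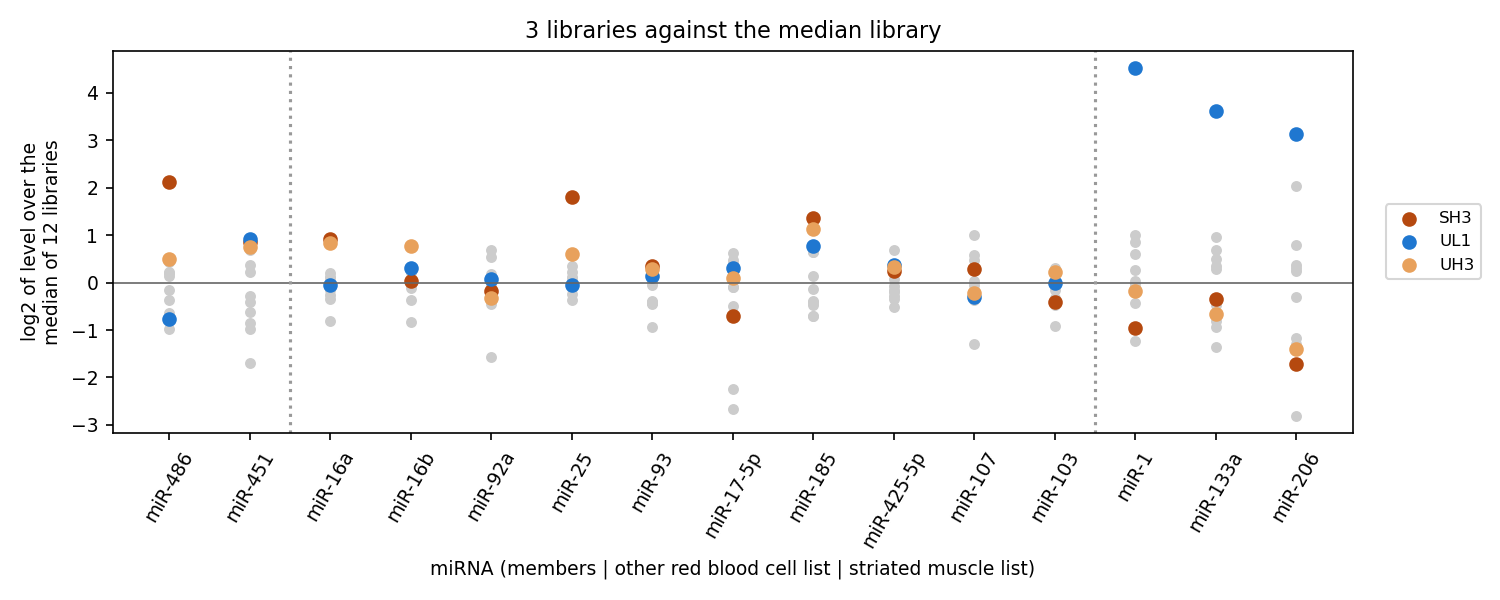
Level of single miRNAs relative to the median of the 12 libraries (log2, vertical axis) for miR-486 and miR-451, the other red cell miRNAs and the striated muscle miRNAs averaging 10 reads or more, separated by dotted lines. Grey points are all libraries, and SH3, UL1 and UH3 are coloured. SH3 is far above 0 for miR-486 and miR-25 and close to 0 for miR-16b, and UL1 is far above 0 for miR-1, miR-133a and miR-206.

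The miRNAs whose pattern was most like that of miR-486, among the 106 others that averaged 10 reads or more, were miR-25 (r = 0.89 of the log2 levels over the 12 libraries), miR-128 (0.76) and miR-15b (0.75). All of them were highest in SH3, and without it r was 0.66, 0.33 and 0.43. The likeness to miR-486 therefore rested largely on that library for miR-128 and miR-15b. miR-128 reached 264.5 normalized reads in SH3 and at most 123.3 elsewhere, and miR-15b 68.1 and at most 30.5.

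For miR-451 the most alike were miR-29c (r = 0.89), miR-185 (0.81), which is on the red cell list, and miR-22-3p (0.79). Without SH3 r was 0.88, 0.78 and 0.84, and without UL1 it was 0.88, 0.79 and 0.76. None of these thus rested on SH3 or UL1 alone, but SL1 was not left out. miR-29c ran from 8.60 normalized reads in SL1 to 43.3 in UL1, the lowest and highest libraries of miR-451 too. The miRNAs nearest to miR-486 and to miR-451 were thus different ones. The libraries share heifers and differ in depth, so these values are descriptions, and miR-144 had too few reads for such a comparison.

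All 3 miRNAs together took 2.13% of the known miRNA reads in UH2 and 17.9% in SH3, and nearly all of it was miR-486. A high share of 1 miRNA lowers the shares of all others in that library, which the TMM scaling is meant to offset.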

How the data were processed

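Plasma was spun at 2 speeds and frozen, EV-RNA was isolated with the exoRNeasy kit, and libraries were made with the QIAseq miRNA kit, which tags each molecule with a unique molecular identifier (UMI). Per the study's methods and the submitters' processing notes, the authors used Cutadapt for trimming and collapsing, aligned to the build UMD3.1 by Bowtie2 2.2.2, kept perfect matches to miRBase and tested with edgeR. The deposited values are a score that the authors derived from read counts, namely tags scaled to 1000000 mapped reads with the decimals dropped and no TMM factor applied. Columns left unused numbered 0. Each value is a whole number of reads times a step for the library (4.48 to 7.93), cut down, and dividing by the step and rounding up gave reads from which 0 of 2365 nonzero values failed to be refound. Because this unit is not a count, log values were tested, as planned for it.

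TMM factors were calculated over the 12 libraries in Python 3.11.15 (numpy 2.4.6, pandas 2.3.3, scipy 1.17.1). limma 3.58.1 in R 4.3.3, with a mean-variance trend, was fitted to log2(normalized reads + 1) of the 2 groups compared, for miRNAs with 1 read or more in 2 of 3 libraries of either group. P values were two-sided and adjusted by Benjamini-Hochberg over all miRNAs tested. The code was tested on simulated data. The replicates of each group were different heifers, and in every pair the reads differed by more than sampling noise (chi-square per degree of freedom 9.22 to 81.2). Shares carry Wilson and ratios exact 95% intervals.

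The pairing of U and S libraries by heifer rests on the study's sampling of the same heifers in both cycles and on the number in the library names. Deviations from group means correlated by 0.10, 0.06 and -0.05 in L1 to L3 and 0.05, 0.21 and 0.13 in H1 to H3 over 238 miRNAs, and the main fits had no replicate block.

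The named miRNAs were the 3 members, miR-23a, the 3 most alike of each member with a mean of at least 10 reads, and up to 3 miRNAs with the most reads of each marker list. miR-101 and miR-199c were named for their sequence, and miR-17-5p and miR-182 because they were called. miR-93 and miR-106b were named as weak cases in the count of miRNAs highest in SH3. Members and lists were chosen with earlier results of these data known. Alternatives were other library sizes, filters, a pseudocount of 2, all groups in one fit, the heifer block and leaving out libraries or heifers.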

Additional observations from a re-analysis of the deposited data

How the results depend on the processing

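The 5 comparisons were refitted under other settings for 202 combinations of member and setting, of which 8 were calls, all after leaving out 1 library, and 12 had the opposite sign. miR-144 in SH vs. SL is not among them, as no fold is given for it. With known miRNA reads as library size, the UH vs. UL difference of miR-486 was -0.013 and that between H and L heifers of miR-451 was -0.047. With miR-191 in place of miR-23a, the S minus U difference of the log2 haemolysis ratio was -0.055. With mapped reads as library size, r of miR-486 and miR-451 in the S cycle was 0.83 (exact permutation p = 0.00833). With the heifer as a replicate block, miRNAs called were 15 in UH vs. SH, 3 in UL vs. SL and 13 for the interaction, against 12, 5 and 12 without it, and the block changed no member's call.

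Over all miRNAs, calls in UH vs. UL were 10 without the filter and 1 with a mean of at least 10 reads, against 6. In SH vs. SL they were 7 with mapped reads, 4 with a mean of at least 10 reads and 18 with all groups in one fit, against 11. In UH vs. SH they were 7 with mapped reads and 6 with a mean of at least 10 reads, against 12. In UL vs. SL they were 0 with a mean of at least 10 reads (limma, where 3 had an unadjusted P up to 0.05), 3 with a pseudocount of 2 and 10 with all groups, against 5, and the interaction gave 4 with a mean of at least 10 reads, against 12. miR-144 is not in the fits with that mean. Scaling moved the median difference of all miRNAs from 0.04 to 0.16 in UH vs. UL with mapped reads and from -0.08 to -0.23 in SH vs. SL with known reads, and to 0.07 with mapped reads. The split of higher and lower calls in SH vs. SL was 4 and 7, and 4 and 3 with mapped reads. In UH vs. SH it was 6 and 6, and 6 and 4 with median-of-ratios factors. The cause of these shifts was not tested.

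Leaving out 1 library gave 5 to 10 calls in UH vs. UL, 8 to 34 in SH vs. SL, 6 to 24 in UH vs. SH, 7 to 15 in UL vs. SL and 7 to 21 for the interaction, the highest of SH vs. SL, UH vs. SH and the interaction being without SH2, the shallowest library. Between 0 and 1 member was called in each. The differences of miR-486 ranged from -0.26 to 0.47 in UH vs. UL and from -0.11 to 0.49 in UL vs. SL. Those of miR-144 ranged from -1.24 to 0.29 in UH vs. UL, -1.10 to 0.061 in UH vs. SH and -0.091 to 1.47 for the interaction. Leaving out 1 heifer, S minus U ranged from -0.34 to 0.39 for miR-451, and H minus L from -0.011 to 0.81 for miR-486, -0.33 to 0.38 for miR-451 and -0.46 to 0.22 for miR-144. The r of miR-486 and miR-144 ranged from -0.70 to 0.12 in the U cycle and from -0.12 to 0.72 in the S cycle, that of miR-451 and miR-144 in the S cycle from -0.64 to 0.25. The r between U and S levels, an analysis added after the data were seen, ranged from 0.38 to 0.88 for miR-486 and from -0.49 to 0.65 for miR-451. Designs with 3 heifers per arm cannot reach 0.05 in the exact test of H against L, and miR-144 rests on too few reads to show a difference.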
